A study of Mus musculus with 18 samples.

Results

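The small RNA content of microglia was compared with that of astrocytes, both taken from the brains of wild-type (WT) mice. The comparison used 3 microglia and 3 astrocyte libraries, which are 6 of the 18 small RNA libraries of the series and 2 of its 6 groups. All mice were 10 months old, on a C57BL/6 background and untreated, and the WT animals were littermates of mice homozygous for the Atxn2-CAG100-KIN allele, which puts a long CAG repeat into Atxn2. Per the study's methods, a whole brain was dissociated, red blood cells were lysed, and magnetic beads against CD11b took out the microglia first. Beads against ACSA-2, an epitope of the sodium pump subunit Atp1b2, then took the astrocytes from what had flowed through, so the fractions are enriched for a surface protein and are not pure cell types. The rows of the table, called features, are mature miRNAs, tRNA gene copies, piRNAs and Ensembl transcripts. Of the 203513 features, 6397 reached 5 counts in 2 or more of the 6 libraries and were tested. The labels call the libraries biological replicates but do not say that a number marks the same brain in both fractions, and the p-values measure the spread between these libraries. Equal amounts of RNA entered each library, so a level is a share of the RNA sequenced. In such bulk samples, fewer cells of a type and less RNA per cell cannot be told apart.

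MicroRNAs (miRNAs) are short RNAs cut from a hairpin precursor that guide a silencing complex to messenger RNAs, and bases 2 to 8 from their 5′ end, the seed, choose most of the targets. Microglia are the resident macrophages of the brain and descend from the yolk sac, and they share miRNAs of the myeloid lineage with blood cells. Astrocytes come from the neuroectoderm together with neurons and oligodendrocytes, and they recycle neurotransmitters and buffer ions around synapses. The small RNA fraction of a cell also holds tRNAs, the small nucleolar RNAs (snoRNAs) that guide the modification of ribosomal RNA, the small nuclear RNAs (snRNAs) of the spliceosome, Y RNAs, and fragments of longer transcripts.

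Sequences of some of the miRNAs with wide differences are shown because the seed names what each can bind. They are from RefSeq (mouse build GRCm38.p6) and are written 5′ to 3′ with the seed in capitals. RefSeq held 1679 of the 1978 mature miRNAs of the table, all 1679 identical to the table's own sequence. The first 4 were higher in microglia and the last 3 in astrocytes.
miR-146a-5p: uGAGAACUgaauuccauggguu
miR-142a-3p: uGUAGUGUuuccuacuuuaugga
miR-142a-5p: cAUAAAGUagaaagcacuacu
miR-223-3p: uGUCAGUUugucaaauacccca
miR-9-5p: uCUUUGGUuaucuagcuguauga
miR-9-3p: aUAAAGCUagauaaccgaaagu
miR-338-3p: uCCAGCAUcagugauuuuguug
In the build GRCm39, the mature sequences were found inside the hairpin genes of the same name by own match. miR-146a-5p lies at chr11:43265262-43265283 on the minus strand, miR-142a-3p at chr11:87647729-87647751 on the plus strand and miR-223-3p at chrX:95286490-95286511 on the plus strand. miR-9-5p is encoded at 3 loci, Mir9-1 on chromosome 3, Mir9-2 on chromosome 13 and Mir9-3 on chromosome 7. miR-219a-2-3p is named only.

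A second set is shown because its members share a seed, and so most predicted targets, but differed in opposite directions between the fractions. In each pair or group the miRNAs higher in microglia stand first.
miR-92a-3p: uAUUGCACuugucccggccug
miR-25-3p: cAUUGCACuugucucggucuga
miR-92b-3p: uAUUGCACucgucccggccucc
miR-15a-5p: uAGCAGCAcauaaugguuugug
miR-15b-5p: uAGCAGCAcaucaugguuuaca
miR-16-5p: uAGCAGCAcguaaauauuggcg
miR-322-5p: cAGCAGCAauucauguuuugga
miR-195a-5p: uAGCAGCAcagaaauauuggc
miR-497a-5p: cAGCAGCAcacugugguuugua
miR-27a-3p: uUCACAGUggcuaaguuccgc
miR-27b-3p: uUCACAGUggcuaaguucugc
Counting from the 5′ end of the first of each pair, miR-92a-3p and miR-92b-3p differ by U10C and G21C, miR-27a-3p and miR-27b-3p by C19U, and miR-16-5p and miR-195a-5p by G10A and U11G, all outside the seed. The members come from separate loci. miR-92a-3p lies at chr14:115281908-115281928 in the miR-17-92 cluster and on chromosome X, whereas miR-92b-3p lies at chr3:89134433-89134454. miR-27b-3p lies at chr13:63448574-63448594.

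The 6 libraries held 3144427 to 3980687 counts. The pairs without a library numbered 2 correlated at 0.987 on the log2 scale (Pearson, across features), and those with one at 0.972 to 0.975. Microglia 2 had 3377 features with at least 5 counts against 5000 and 5531 in the other microglia libraries, and its TMM scaling factor was the lowest at 0.806. Astrocytes 2 held 102 counts of Xist, the transcript that silences an X chromosome, against 25 to 41 in the other 5 libraries. Per the study's methods, the mutant-WT pairs sequenced were of both sexes, with more male than female pairs. Sex was not a term of the tests here.

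The fractions differed across the small RNA transcriptome. By edgeR's quasi-likelihood test with Benjamini-Hochberg adjustment, 2016 of 6397 features were called, which is 31.5%. A call needed an adjusted p no larger than 0.05 and a log2 difference of 1 or more in either direction. Of these, 779 (12.2%) were higher in microglia and 1237 (19.3%) in astrocytes. A table with transcripts summed by gene and tRNA copies summed by isodecoder, a set of tRNA genes with the same sequence, had 7239 entries tested and 2230 called (30.8%), with 857 higher in microglia (11.8%) and 1373 in astrocytes (19.0%). The libraries of the fractions did not overlap for 3108 features, 48.6% of those tested. Of the features tested, 1770 passed the filter on low counts only through 1 fraction, 1160 through astrocytes and 610 through microglia. The median log2 difference, microglia minus astrocytes, was -0.22 over all features and -0.29 in the summed table, and stood at -0.32 and -0.40 when only library totals were used for scaling. Without both libraries numbered 2, the calls numbered 2503 and 48.1% of them were higher in microglia, against 38.6% with all 6 libraries.

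The classes of RNA took broadly similar shares of the counts, with a few that stood apart. Mitochondrial tRNAs, the 22 tRNAs encoded in the mitochondrial genome, took 7.39%, 7.09% and 6.93% of the counts in astrocytes and 1.59%, 1.68% and 1.40% in microglia. This 4.59-fold difference (7.14% ± 0.234 against 1.56% ± 0.143, SD, n = 3) was the widest among the classes that took over 1% of the counts. The class of miscellaneous RNAs, mainly Y RNAs and the 7SL RNA of the signal recognition particle, was also lower in microglia, at 0.210% ± 0.0303 against 0.654% ± 0.0982. Mitochondrial ribosomal RNA took 0.306% ± 0.0435 in microglia and 0.690% ± 0.0258 in astrocytes. In the other direction, piRNA entries took 6.54% ± 0.506 in microglia and 4.93% ± 0.0932 in astrocytes, and snRNAs 1.81% ± 0.206 and 1.40% ± 0.0893. In none of these 5 classes did the fractions overlap. The exact two-sided permutation test gave p = 0.1 for each, the smallest that 3 against 3 libraries allow, and 0.216 after adjustment over 41 classes.

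The largest classes differed by smaller factors. SnoRNAs took 22.3% ± 0.721 of the counts in astrocytes and 23.9% ± 1.24 in microglia, retained introns 15.3% ± 0.502 and 16.6% ± 0.472, and Ensembl entries with no type given 16.4% ± 0.742 and 18.7% ± 1.07, none of them overlapping. The snoRNA difference of 1.68 percentage points became 0.974 without Microglia 2 and 0.582 without both libraries numbered 2, and the retained intron difference of 1.33 points became 0.776 without both. Nuclear-encoded tRNAs, at 10.8% ± 0.568 in astrocytes and 9.74% ± 1.43 in microglia, overlapped between the fractions (exact permutation p = 0.4). Mature miRNAs took 5.05%, 8.30% and 6.09% in astrocytes and 5.17%, 5.09% and 5.99% in microglia. They overlapped as well (exact permutation p = 0.5), and without both libraries numbered 2 the difference of -1.06 percentage points became 0.0127. The hairpin entries of miRNA genes took 3.54% and 3.72% and overlapped (exact permutation p = 0.8).

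**Figure D1:**
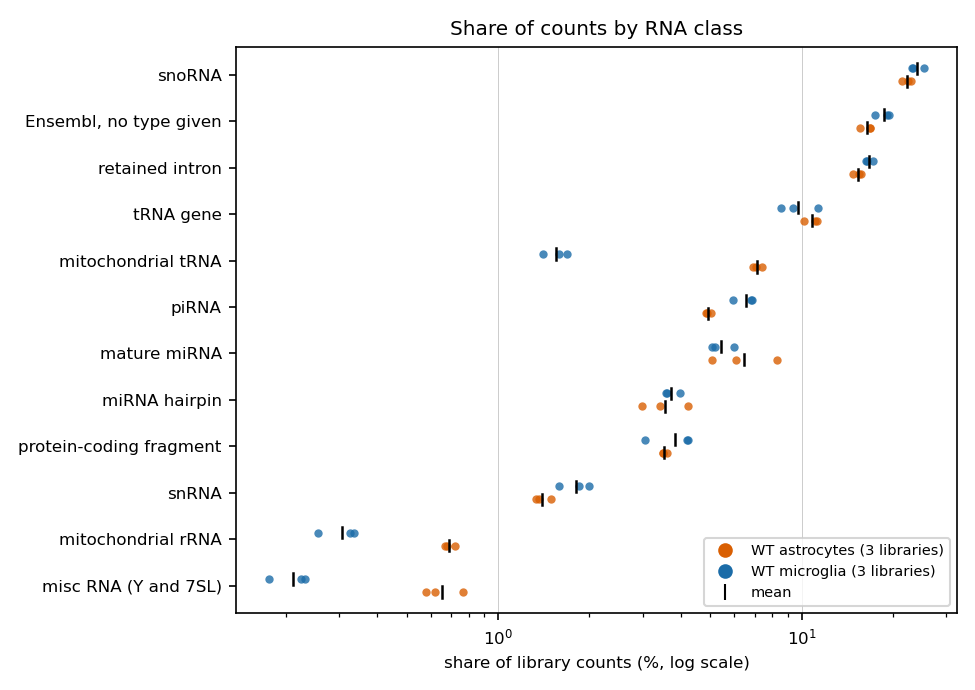
Share of the library counts taken by 12 RNA classes, on a log scale in percent, with 1 point for each of the 3 WT astrocyte (orange) and 3 WT microglia (blue) libraries and a black line at the mean. Mitochondrial tRNA, at 7.14% in astrocytes and 1.56% in microglia, and the miscellaneous RNAs stand apart, while mature miRNA, miRNA hairpins and nuclear tRNA overlap.

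Among the classes with over 100 features tested, mature miRNAs had the highest share of calls. Of 418 tested, 242 were called (57.9%, against 31.5% of all features), 94 higher in microglia and 148 in astrocytes, and the median log2 difference was -0.28. The fractions did not overlap for 299 of the 418. Hairpin entries followed closely, with 157 of 285 called (55.1%). In a smaller class, the mitochondrial tRNAs, all 22 were called, whereas 32.8% of protein-coding transcripts, 26.5% of antisense transcripts, 23.2% of snoRNAs, 22.4% of tRNA genes, 18.8% of retained introns and 10.8% of piRNA entries were. The most abundant miRNAs took similar shares of the miRNA counts in both fractions. The 5 most abundant miRNAs took 33.6% ± 1.85 of miRNA counts in astrocytes (miR-125b-5p, miR-9-5p, miR-26a-5p, let-7c-5p and let-7a-5p) and 31.0% ± 0.609 in microglia (miR-146a-5p, miR-16-5p, miR-142a-3p, miR-125b-5p and miR-23a-3p). miR-125b-5p was the member of both sets.

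The myeloid miRNAs were far higher in microglia. In the list of 8 such miRNAs, 7 were called higher and none lower, with a median log2 difference of 7.21 (also 7.21 with miR-223-5p, at 0 counts in astrocytes, set to its bound), and their summed level was 160 to 214 CPM (counts scaled to a common library size) in astrocytes and 8620 to 11003 CPM in microglia. Values in parentheses after a name are log2 differences, microglia minus astrocytes, from edgeR. miR-146a-5p, which damps signalling from Toll-like and interleukin-1 receptors, stood at 10.1, 22.8 and 13.9 CPM in astrocytes and at 5593, 7325 and 6190 CPM in microglia. The lowest microglia library exceeded the highest astrocyte library by over 2 orders of magnitude, and this miRNA alone was the most abundant of the microglial fraction. Its log2 difference was 8.66 ± 0.35 (SE; edgeR adjusted p = 4.47e-08). miR-142a-3p, a product of a hairpin active in most blood cells, rose from 6.37, 9.24 and 7.25 CPM to 2380, 2841 and 2536 CPM (log2 difference 8.39 ± 0.27, adjusted p = 1.61e-08). The opposite arm of that hairpin, miR-142a-5p, ran from 0.579 to 1.16 CPM in astrocytes and from 150 to 239 CPM in microglia, a log2 difference of 7.86. Both arms of Mir142 thus differed in the same direction, and the hairpin entry itself had a log2 difference of 8.72.

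miR-223-3p, known from neutrophils and monocytes, stood at 2.32, 2.82 and 3.19 CPM in astrocytes and at 365, 436 and 478 CPM in microglia, a log2 difference of 7.24 ± 0.30. Its passenger arm miR-223-5p had 0 counts in the astrocyte libraries and 19 in the microglia libraries, which is at least 6.64-fold higher against a floor of 3 counts over the group. miR-511-3p, which lies in an intron of the macrophage mannose receptor gene Mrc1, had 2 counts in astrocytes and 317 in microglia (95% exact interval of the ratio 45.6 to 1378, counting error only). Both were at or near 0 counts in astrocytes and passed the filter on low counts through microglia alone, which fixed their direction. miR-155-5p, an inflammation-induced miRNA, was higher too but scarce, at 3.41 CPM in astrocytes and 11.3 CPM in microglia (log2 difference 1.71). The exception was miR-150-5p, a lymphocyte miRNA, at 137, 174 and 158 CPM in astrocytes and 99.1, 100 and 104 CPM in microglia. It did not overlap between fractions, but its log2 difference of -0.63 was short of the threshold of 1.

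Outside that list, among miRNAs that reached 100 CPM in microglia, the widest differences toward microglia belonged to miR-342-3p, miR-455-3p, miR-322-5p and miR-339-5p. miR-342-3p, encoded in an intron of Evl, stood at 23.5, 69.8 and 27.6 CPM in astrocytes and at 1112, 1532 and 1354 CPM in microglia (log2 difference 5.04 ± 0.41, adjusted p = 9.41e-06). miR-455-3p lay between 20.3 and 29.8 CPM in astrocytes and between 399 and 523 CPM in microglia, and miR-339-5p between 10.1 and 13.3 CPM and between 179 and 185 CPM. These 3 had 1 order of magnitude or more between the fractions and no overlap. miR-10a-5p, a product of the HoxB locus, was placed with the vascular miRNAs and was the only 1 of the 6 tested in that list to be called, at 2.61, 1.80 and 3.48 CPM in astrocytes and 81.0, 86.8 and 89.7 CPM in microglia. The endothelial miR-126a-3p stood at 252, 451 and 339 CPM in astrocytes and 157, 251 and 179 CPM in microglia, a log2 difference of -0.83 that was not called.

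**Figure D2:**
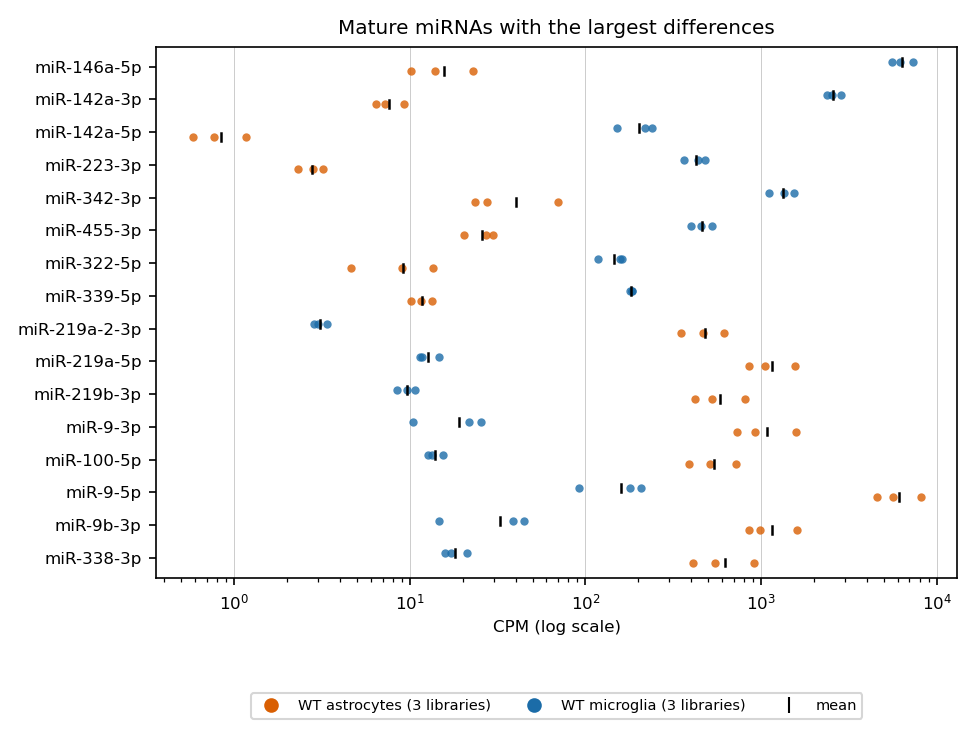
Levels in CPM, on a log scale, of the 16 mature miRNAs with the largest differences among those that reached 100 CPM in the higher fraction, with 1 point per library (3 WT astrocyte libraries in orange, 3 WT microglia libraries in blue) and a black line at the mean. In each row the points of the fractions do not overlap, from miR-146a-5p (15.6 against 6369 CPM) to miR-9-5p (6121 against 159 CPM).

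miRNAs of the neural lineage were higher in astrocytes. Of 14 tested, 13 were called and none was higher in microglia (median log2 difference -3.27). Their summed level was 7520 to 14280 CPM in astrocytes and 215 to 539 CPM in microglia. Most of it was miR-9-5p, which promotes neural differentiation from progenitors, at 4582, 8114 and 5667 CPM in astrocytes and 179, 91.8 and 208 CPM in microglia (log2 difference -5.26 ± 0.35, adjusted p = 2.48e-06). Its other arm miR-9-3p ran from 733 to 1588 CPM against 10.4 to 25.5 CPM (log2 difference -5.80). miR-124-3p, the classical miRNA of neurons, stood at 924, 2593 and 1030 CPM in astrocytes and 95.3, 46.8 and 85.5 CPM in microglia, a log2 difference of -4.32 ± 0.44. Astrocytes 2 was the highest library and Microglia 2 the lowest for miR-9-5p, miR-9-3p and miR-124-3p alike. miR-129-5p, miR-138-5p, miR-135a-5p and miR-128-3p had log2 differences of -3.51, -3.31, -3.24 and -3.07. The call of miR-137-3p (log2 difference -1.26) was lost in 11 of the settings tried, every single-library omission among them, and miR-383-5p (-0.92) was not called.

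The 4 miRNAs known from oligodendrocytes, whose miR-219 and miR-338 promote myelination, were all higher in the astrocyte fraction, with a median log2 difference of -5.82. Their sum ran from 1695 to 3242 CPM in astrocytes and from 32.0 to 43.2 CPM in microglia. miR-219a-2-3p stood at 349, 619 and 468 CPM in astrocytes and 3.01, 2.86 and 3.38 CPM in microglia (log2 difference -7.26 ± 0.34, adjusted p = 1.25e-07), the widest difference toward astrocytes among the abundant miRNAs. miR-219a-5p ran from 856 to 1572 CPM against 11.4 to 14.6 CPM, miR-219b-3p, which is not among those 4, from 419 to 812 CPM against 8.49 to 10.7 CPM, and miR-338-3p from 407 to 910 CPM against 15.9 to 21.1 CPM. Their log2 differences were -6.53, -5.93 and -5.11. The hairpin gene Mir219b lies inside Mir219a-2 on the opposite strand. Strand was not used in counting, so miR-219b-3p and miR-219a-5p are not separate observations. Among the mRNA fragments, the sum over the 12 listed oligodendrocyte genes was 34.9 to 36.5 CPM in astrocytes and 12.7 to 20 CPM in microglia. Of the 9 tested, 4 were called, and without Astrocytes 2, 1 of 5 tested. The part of oligodendrocytes in the miRNA difference was not tested.

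miRNAs named for choroid plexus and ciliated epithelium were divided. miR-34c-5p, which is abundant in ciliated cells, stood at 665, 1206 and 969 CPM in astrocytes and 92.0, 31.1 and 88.9 CPM in microglia (log2 difference -3.74), and both arms of its neighbour miR-34b were lower in microglia as well (-3.83 and -2.74). miR-204-5p, the main miRNA of the choroid plexus and pigment epithelium, fell from 558 ± 129 CPM to 175 ± 54.7 CPM without overlap (-1.67). Its relative miR-211-5p was higher in microglia (2.05), from 0.257 to 0.871 CPM to 1.92 to 2.14 CPM, and that call was lost in 6 settings. The epithelial miR-200a-3p and miR-200b-3p overlapped between fractions at 10.3 to 39.8 CPM. In all, 5 of the 11 tested were called, 1 toward microglia and 4 toward astrocytes, and the median log2 difference was -0.55. Of the red blood cell miRNAs, miR-451a was not called (-0.27), whereas miR-486a-5p was lower in microglia (-2.36).

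The miR-17-92 cluster and its paralogue miR-106b-25, which promote proliferation, differed together. All 9 of their miRNAs tested were higher in microglia, with a median log2 difference of 2.60 and sums of 328 to 606 CPM in astrocytes and 1792 to 2436 CPM in microglia. miR-19b-3p was the most abundant of them, at 72.4, 142 and 87.9 CPM in astrocytes and 570, 849 and 784 CPM in microglia (log2 difference 2.86). miR-19a-3p, miR-18a-5p, miR-17-5p and miR-20a-5p had log2 differences of 3.25, 3.21, 2.82 and 2.60. The miR-106b cluster differed less, with 1.42 for miR-106b-5p, 1.3 for miR-25-3p and 1.09 for miR-93-5p, and the call of the last was lost in 3 settings. The transcript that carries the larger cluster, Mir17hg-201, rose from 62.9, 115 and 79.2 CPM to 454, 598 and 537 CPM (log2 difference 2.63).

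The large miRNA cluster of the imprinted Dlk1-Dio3 region, expressed from the maternal chromosome and mostly in neurons, was lower in microglia. Of 24 miRNAs tested from a list of 30, 23 were called, with a median log2 difference of -2.83 and sums of 206 to 577 CPM in astrocytes and 26.4 to 61.6 CPM in microglia. miR-127-3p stood at 67.2, 166 and 83.0 CPM in astrocytes and 15.3, 7.14 and 13.8 CPM in microglia (-3.11), and miR-434-3p at 25.5, 83.4 and 35.1 CPM and 6.57, 4.64 and 10.7 CPM (-2.70). Astrocytes 2 held the highest level of both. Without it 12 of 20 tested in the list were called, and without both libraries numbered 2 there were 16 of 20 tested. With a filter of 20 counts in 3 libraries there were 8. None of these calls was higher in microglia. The long noncoding RNAs Rian and Mirg of the same region were also lower in microglia. Rian was at 1352, 558 and 1447 CPM in astrocytes and 271, 63.0 and 252 CPM in microglia (log2 difference -2.51), and here Astrocytes 2 was the lowest of the astrocyte libraries.

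The families most abundant in both fractions differed by less. Of the 14 tested members of the miR-99, miR-100, miR-125 and let-7 families, which share clusters on several chromosomes and are typical of differentiated cells, 4 were called lower in microglia and none higher, and the median was -0.64. miR-125b-5p stood at 5460, 7238 and 6556 CPM in astrocytes and 2104, 2674 and 2337 CPM in microglia (-1.44 ± 0.18). let-7b-5p and let-7e-5p had log2 differences of -1.65 and -1.38, and the call of let-7e-5p was lost without Astrocytes 2, while let-7c-5p (-0.97), let-7a-5p (-0.70) and let-7i-5p (0.29) were not called. The near-identical miR-99a-5p and miR-100-5p, which differ by U16A, behaved differently. miR-100-5p fell from 390, 722 and 515 CPM to 13.4, 15.4 and 12.7 CPM (-5.29 ± 0.30, adjusted p = 7.48e-07), whereas miR-99a-5p stood at 668, 1133 and 829 CPM in astrocytes and at 1283, 1585 and 1494 CPM in microglia, a log2 difference of 0.73 ± 0.22 that was not called.
miR-99a-5p: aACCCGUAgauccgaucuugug
miR-100-5p: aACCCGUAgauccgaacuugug
These miRNAs share the seed ACCCGUA and come from chr16:77395828-77395849 and chr9:41442733-41442754, both on the plus strand.

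Of the miR-29, miR-30 and miR-181 families, 4 of 12 were called lower in microglia and the median was -0.27. The 5 miR-30 species lay between -0.54 and -0.13 and none was called. miR-29c-3p stood at 262, 583 and 296 CPM in astrocytes and 77.2, 115 and 110 CPM in microglia (-1.92), while miR-29a-3p, which differs from it by C10U, stood at 536, 1169 and 659 CPM and 1370, 1725 and 1590 CPM, a log2 difference of 0.99 that fell just short of the threshold. Without Astrocytes 2, 1 of the 12 was called lower and 2 were called higher. Among further abundant miRNAs, miR-191-5p (1.71) and miR-652-3p (1.32) were higher in microglia. miR-26a-5p (-1.12) and miR-222-3p (-1.17) were lower, and both lost their call without Astrocytes 2. miR-21a-5p, which is raised in many reactive tissues, was not called at 0.19.

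Members of some seed families were divided between the fractions. The 418 tested miRNAs had 332 seeds, of which 53 were shared by 2 or more miRNAs and 28 had 2 or more called members. In 9 of these 28 seed groups members were called in both directions, and in the rest in a single direction. In the group with the seed AGCAGCA, miR-15a-5p, miR-15b-5p, miR-16-5p and miR-322-5p were higher in microglia, with log2 differences of 1.82, 1.35, 1.42 and 3.99, and miR-195a-5p and miR-497a-5p lower, with -2.67 and -3.04. miR-16-5p stood at 1089, 2231 and 1435 CPM in astrocytes and 3481, 4940 and 4271 CPM in microglia. miR-195a-5p stood at 113, 279 and 140 CPM and 26.0, 27.1 and 30.2 CPM. Because miR-16-5p was by far the most abundant, the sum over the seed followed it, from 2156 ± 843 CPM in astrocytes to 5401 ± 896 CPM in microglia.

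For the seed AUUGCAC the leading miRNA differed between the fractions. miR-92b-3p, from a locus of its own on chromosome 3, was at 484, 542 and 550 CPM in astrocytes and 47.9, 7.85 and 50.4 CPM in microglia (-3.88 ± 0.52), and made up 84.8% of the seed's level in astrocytes and 10.1% in microglia. miR-92a-3p, from the miR-17-92 cluster, was at 51.6, 69.0 and 66.2 CPM and 229, 237 and 231 CPM (1.90 ± 0.23), and its share went from 10.1% to 66.3%. The sum over the seed differed by less than either, at 619 ± 52.3 CPM in astrocytes and 350 ± 17.7 CPM in microglia, a log2 ratio of -0.82. The seed UCACAGU was similar. miR-27b-3p stood at 220, 447 and 290 CPM in astrocytes and 92.3, 127 and 114 CPM in microglia (-1.52), and miR-27a-3p at 15.9, 22.3 and 21.5 CPM and 92.0, 123 and 114 CPM (2.46). miR-27b-3p thus held 94.1% of the seed's level in astrocytes, and the 2 species were about equal in microglia, at 50.3% and 49.7%. Their cluster partners followed in part, with miR-23a-3p higher in microglia (2.43) and miR-23b-3p not called at -0.94.

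In the remaining divided groups 1 member dominated or all were scarce. miR-351-5p (3.36) rose from 4.56 to 47.0 CPM, beside miR-125b-5p with the same seed at 6418 and 2372 CPM. miR-130b-3p (3.03) and miR-130a-3p (-2.39) differed in opposite directions, and so did miR-24-2-5p (2.56) and miR-24-1-5p (-2.10), the passenger arms of the 2 loci that encode miR-24-3p. miR-362-3p (2.57) and miR-329-3p (-2.83) both stayed below 43 CPM. miR-330-5p stood at 40.3, 52.4 and 51.1 CPM in astrocytes and 3.56, 2.50 and 2.34 CPM in microglia (-4.08), while miR-326-3p with the same seed was higher in microglia (1.15), so that the seed's sum was nearly level at 79.8 and 73.6 CPM. Groups called in a single direction included miR-146a-5p and miR-146b-5p (37.4 and 6452 CPM in sum), the miR-34 group (1320 and 240 CPM) and the let-7 group, whose 9 members summed to 12383 and 8118 CPM with 2 called lower in microglia, 1 of which, let-7e-5p, lost its call without Astrocytes 2.

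**Figure D3:**
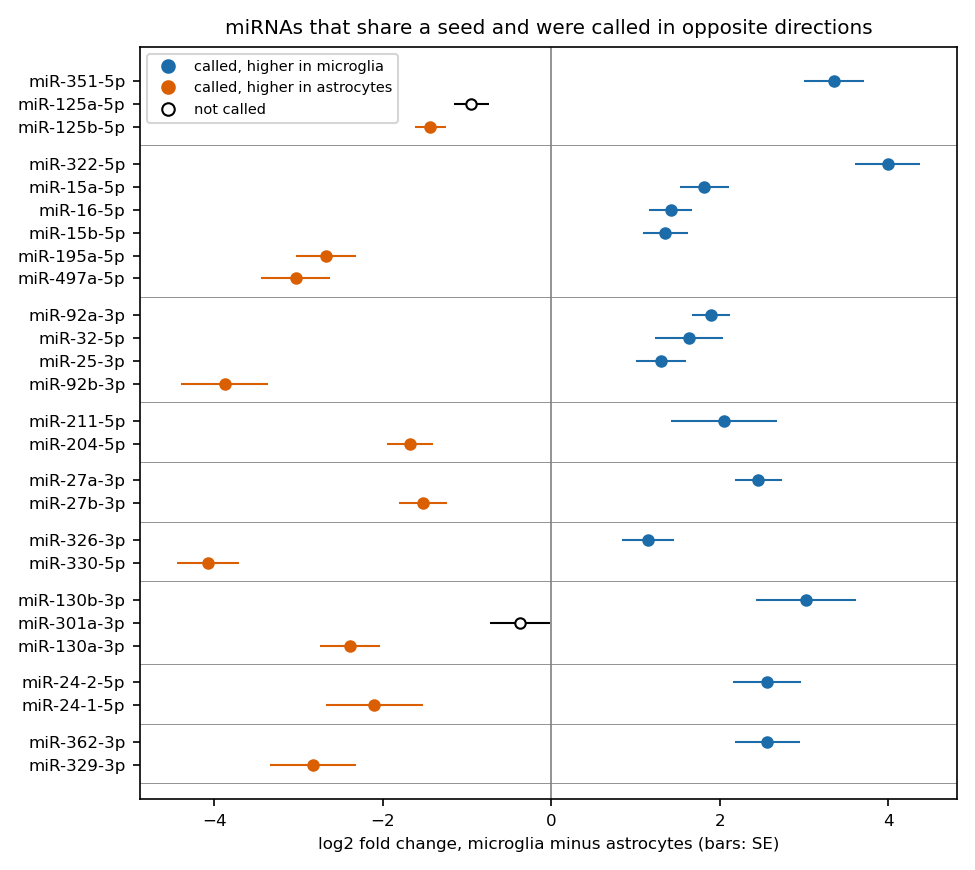
Log2 difference, microglia minus astrocytes, with its standard error, of the miRNAs in the 9 groups that share a seed and had members called in both directions, with grey lines between groups. Blue marks miRNAs called higher in microglia, orange those called higher in astrocytes and open circles those not called. In the miR-15/16 group miR-322-5p (3.99) and miR-497a-5p (-3.04) mark the ends.

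Fragments of most microglia and astrocyte marker mRNAs were higher in the fraction of that name, in the table summed by gene. Counts of long transcripts are counts of short fragments here and are low. Of 23 tested microglia markers, 21 were higher in microglia, and their sum was 32.7 to 42.0 CPM in astrocytes and 244 to 300 CPM in microglia. The median log2 difference was 5.94, or 4.6 with genes at 0 counts in astrocytes set to their bound and those with 1 to 3 counts set to the ratio of their counts. Csf1r, the receptor that keeps microglia alive, had 2 counts in the astrocyte libraries and 268 in the microglia libraries (95% exact interval of the ratio 38.3 to 1159), and P2ry12, a purine receptor of resting microglia, had 3 and 217 (25.5 to 369). Tmem119 and Ctss were at 0 counts in astrocytes and thus at least 18.1-fold and 67.4-fold higher in microglia. The exceptions were Cd81 (-1.42), a tetraspanin of many cell types whose call was lost in 5 settings, and Sparc (-0.06), which was not called. With the filter of 20 counts in 3 libraries, 10 of the list were called higher. Either filter can be passed through microglia alone, which fixes the direction of a gene. Csf1r, P2ry12, Tmem119 and Ctss passed the main filter in that way, so their direction is not a separate result.

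Of 25 tested astrocyte markers, 24 were higher in astrocytes, with a median log2 difference of -4.82 and sums of 787 to 870 CPM in astrocytes and 40.5 to 42.7 CPM in microglia. The glutamate transporter Slc1a2 stood at 126, 144 and 138 CPM in astrocytes and 3.90, 3.34 and 3.12 CPM in microglia (-5.28). Atp1b2, which carries the epitope of the astrocyte beads, stood at 58.0, 59.0 and 67.4 CPM and 0.779, 1.67 and 0.479 CPM (-6.06). The GABA transporter Slc6a11 had 557 counts in astrocytes and 1 in microglia, and the water channel Aqp4 had 209 and 3 (95% exact interval of the ratio 22.6 to 327). Slc6a11 and Aqp4 passed the filter on low counts through astrocytes alone, which fixed their direction. S100b was the member not called (-1.77, adjusted p = 6.10e-02). Apoe, a lipid carrier of astrocytes that reactive microglia also make, stood at 27.6, 31.6 and 36.4 CPM in astrocytes and 9.61, 13.8 and 7.67 CPM in microglia (-1.64 ± 0.39), a call lost without Microglia 3.

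Markers of other cells summed to less than the fraction's own markers in each library. The gap was smallest for endothelial and mural markers in microglia, where microglia markers summed to 244 to 300 CPM. Neuron markers summed to 20.9 to 49.4 CPM in astrocytes and 7.10 to 37.4 CPM in microglia. Of the 12 tested, 2 were called, Map2 (-1.52) and Syt1 (-1.71), each lost in 9 settings, among them the omission of Microglia 2, and 3 were called without Astrocytes 2. The lowest sum, 7.10 CPM, belonged to Microglia 2, the library that was also lowest in miR-9-5p, miR-124-3p and miR-92b-3p. Of 9 tested oligodendrocyte markers 4 were called, all lower in microglia. Without Astrocytes 2, 5 passed the filter and 1 was called. Endothelial and mural markers summed to 33.3 to 50.4 CPM in astrocytes and 48.0 to 115 CPM in microglia, mostly from Pecam1 (1.31, a call lost in 3 settings), while Pdgfrb (-1.93, lost in 10) and Vtn (lost in 3) were lower in microglia and Cldn5 had 3 counts over all 6 libraries together. Choroid plexus and ependyma markers summed to 18.0 to 44.0 CPM and 12.9 to 22.1 CPM, with Ttr (-0.97), Enpp2 (-0.82) and Kl (-0.66) not called at edgeR adjusted p = 8.24e-02 to 4.70e-01, and no red blood cell marker passed the filter. The part of neurons and vascular cells in the miRNA differences was not tested.

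**Figure D4:**
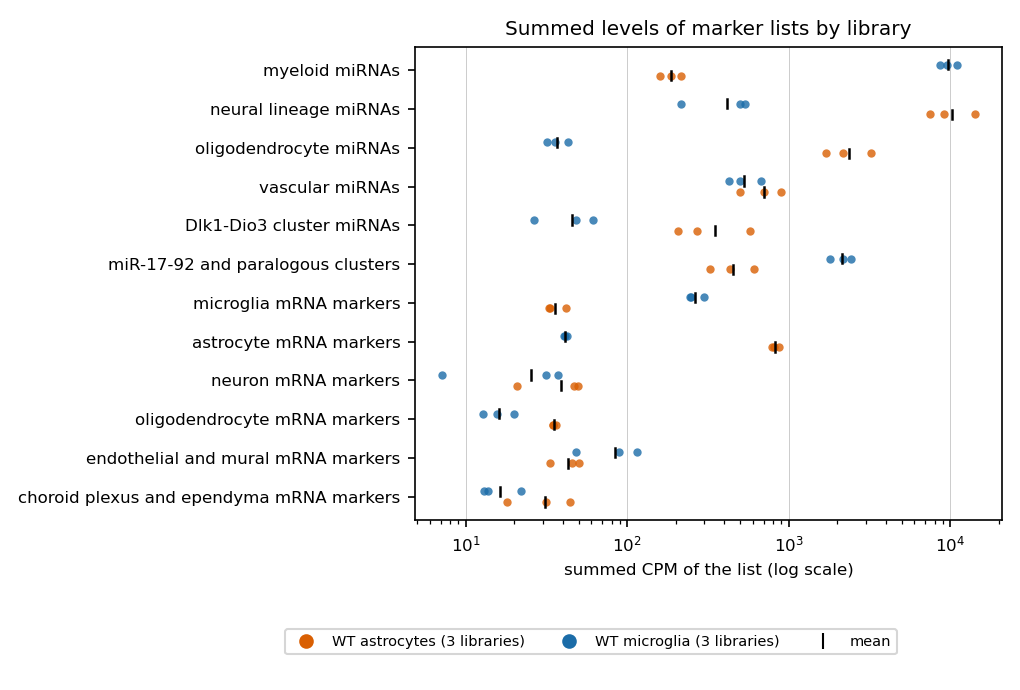
Summed level in CPM, on a log scale, of 12 lists of miRNAs and mRNA fragments, with 1 point per library (3 WT astrocyte libraries in orange, 3 WT microglia libraries in blue) and a black line at the mean. Myeloid miRNAs and microglia markers lie to the right in microglia, and neural, oligodendrocyte and Dlk1-Dio3 miRNAs and astrocyte markers lie to the right in astrocytes, whereas neuron markers overlap at 7.10 to 49.4 CPM.

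RNA from the mitochondrial genome was lower in microglia across its classes. All 22 mitochondrial tRNAs were called, with a median log2 difference of -1.99 in the summed table and a range of -3.03 to -1.33. mt-Ts2, which reads serine codons, was the most abundant at 12153, 13661 and 11990 CPM in astrocytes and 2516, 4624 and 2157 CPM in microglia (-2.02). mt-Tw, the tryptophan tRNA, had the widest difference, from 1400, 1874 and 1419 CPM to 147, 293 and 137 CPM, and mt-Tt, the threonine tRNA, the narrowest, from 765, 790 and 712 CPM to 259, 412 and 231 CPM, a call lost without Microglia 3. Microglia 2 was the highest microglia library for each of these 3. Fragments of the 13 mitochondrial protein genes were lower by less, with a median of -1.25, a range of -1.66 to -0.70 and 9 called. mt-Co1, a subunit of cytochrome oxidase, stood at 201, 180 and 203 CPM in astrocytes and 57.9, 83.5 and 43.4 CPM in microglia (-1.66). With library totals 12 of the 13 were called, and without Microglia 3 there was 1. Of the ribosomal RNAs, mt-Rnr1 was called (-1.23), which it was not without Astrocytes 2 or without Microglia 3, and mt-Rnr2 was not called (-0.97).

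Nuclear-encoded tRNAs differed by isodecoder rather than as a class. Of 176 isodecoders tested, 46 were called (26.1%, against 30.8% in the whole summed table), 22 higher in microglia and 24 in astrocytes, and the median was -0.24. Tryptophan tRNAs were higher in microglia, with 4 of 6 isodecoders called and a sum of 338 ± 78.0 CPM in astrocytes and 966 ± 86.7 CPM in microglia. tRNA-Trp-CCA-1 stood at 22.3, 33.0 and 18.6 CPM and 281, 138 and 269 CPM (3.22). In mitochondria the tryptophan tRNA differed the other way, as given above. Of 13 threonine isodecoders, 6 were called lower in microglia (median -1.29), but their sums overlapped at 1837, 2243 and 1802 CPM in astrocytes and 574, 2578 and 515 CPM in microglia, where Microglia 2 was the highest of all. The isodecoder tRNA-Thr-TGT-1 stood at 38.5, 50.1 and 35 CPM in astrocytes and 3.12, 9.60 and 2.4 CPM in microglia (-3.11). Of 21 alanine isodecoders, 7 were lower in microglia and 1 was higher, and tRNA-Ala-AGC-3 stood at 255, 787 and 228 CPM and 16.9, 46.3 and 16.5 CPM (-4.01). Single isodecoders of other amino acids differed as widely. tRNA-Gly-ACC-1 rose from 4.46, 7.24 and 4.51 CPM to 64.2, 121 and 48.2 CPM (3.83), and tRNA-iMet-CAT-3, an initiator tRNA, from 32.6, 59.8 and 41.7 CPM to 361, 300 and 281 CPM (2.81). tRNA-Cys-GCA-1 rose from 137, 283 and 176 CPM to 999, 467 and 826 CPM (1.94). The number called lower in microglia was sensitive to single libraries, at 63 without Microglia 2 and 15 without Microglia 3.

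**Figure D5:**
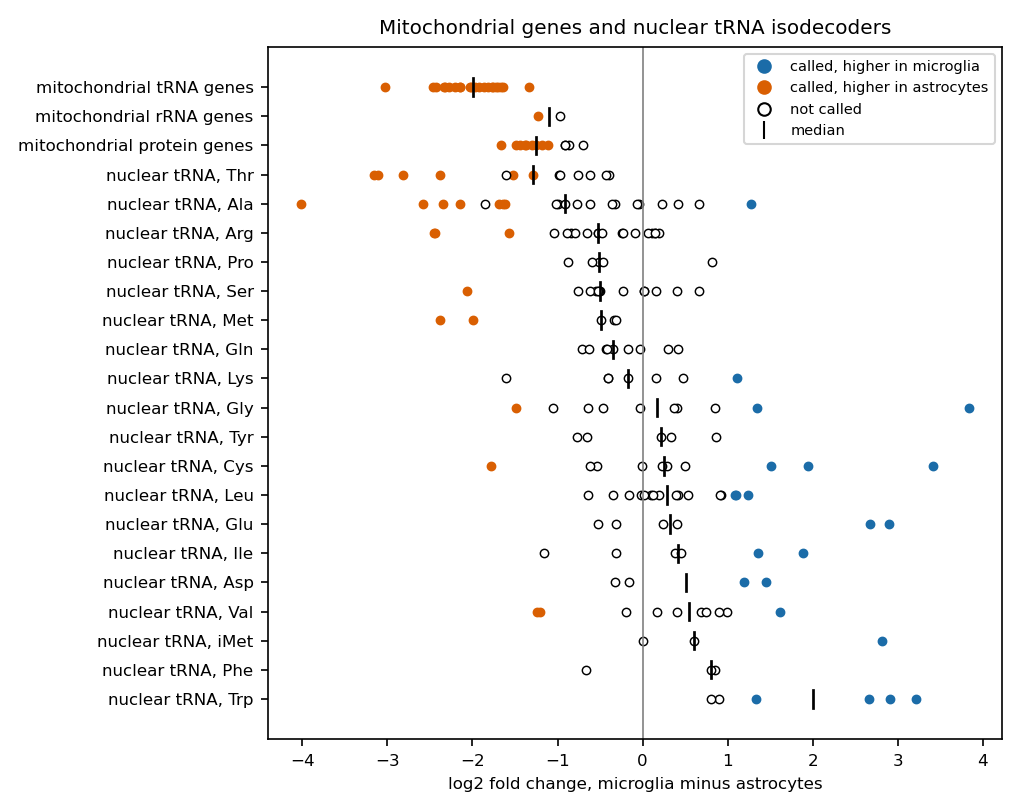
Log2 difference, microglia minus astrocytes, of mitochondrial genes and of nuclear tRNA isodecoders by amino acid, for amino acids with at least 3 isodecoders tested, with a black line at the median. Filled points were called (blue higher in microglia, orange higher in astrocytes) and open points were not. All mitochondrial tRNAs lie between -3.03 and -1.33, while nuclear tRNAs spread to both sides, with threonine at a median of -1.29 and tryptophan at 2.00.

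The small noncoding RNAs made by RNA polymerase III did not differ as a group. The Y RNAs, which bind the Ro60 protein, were lower in microglia. Rny1 stood at 3256, 5438 and 3185 CPM in astrocytes and 361, 498 and 389 CPM in microglia (-3.25 ± 0.36, adjusted p = 3.41e-07), and Rny3 at 1538, 2153 and 1503 CPM and 365, 541 and 354 CPM (-2.04). The neuronal Bc1 was lower too (-1.49), a call lost in 4 settings. In contrast, the vault RNA Vaultrc5 rose from 21.5, 26.8 and 25.4 CPM to 229, 169 and 189 CPM (2.99). Rn7sk, which holds back the elongation factor P-TEFb, rose from 409, 485 and 379 CPM to 996, 938 and 1023 CPM (1.22). The 7SL genes Rn7s1 and Rn7s2, whose names the table and the GENCODE annotation assign the other way round, were higher by 1.2 and 1.18, and Rmrp by 1.06, a call lost with library totals. In all, 5 of 9 were called higher in microglia and 3 lower, and Rpph1 (0.91) was not called.

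Several snRNAs and snoRNAs stood apart from their classes. Of 81 snRNA entries tested, 13 were called (16.0%, against 31.5% of all features), 12 of them higher in microglia. In the summed table, 6 of 11 listed snRNA genes were higher in microglia and none lower (median 1.11). Rnu7, which processes histone mRNA ends, stood at 80.9, 76.4 and 78.7 CPM in astrocytes and 240, 362 and 266 CPM in microglia (1.88). The U1 genes Rnu1a1, Rnu1b1, Rnu1b2 and Rnu1b6, which are near-identical and divide a shared pool of reads, were higher by 1.11, 1.29, 1.27 and 2.25 (the calls of Rnu1a1 and Rnu1b2 were lost without Astrocytes 3), and the minor spliceosomal Rnu4atac by 1.56. Rnu2-10, Rnu5g, Rnu6, Rnu11 and Rnu12 lay between 0.13 and 0.50 and were not called. Among snoRNAs, Snord17 (chr2:144107899-144108136, GRCm39) had the widest difference toward microglia of those that reached 20 CPM, from 828, 873 and 811 CPM to 5870, 7233 and 5717 CPM (2.91 ± 0.18, adjusted p = 1.33e-06). It was 7.49-fold higher, with no overlap, in a class whose median was 0.20.

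The imprinted snoRNAs of the Prader-Willi region, which are made from the paternal chromosome mainly in neurons, were lower in microglia. Snord64 stood at 578, 678 and 639 CPM in astrocytes and 34.8, 13.4 and 33.6 CPM in microglia (-4.52), and Snord107 had a log2 difference of -4.30. All 17 Snord116l genes, which are near-copies and share reads, were called, with a median of -2.57, a range of -2.83 to -2.30 and sums of 401 to 958 CPM against 49.7 to 162 CPM. Their host transcript Snhg14 was at 128, 57.6 and 139 CPM in astrocytes and 33.5, 7.51 and 31.6 CPM in microglia (-2.14). Gm25107, a snoRNA with no family name, had the widest difference toward astrocytes among snoRNAs that reached 20 CPM, at 280, 331 and 268 CPM and 10.4, 9.64 and 13.8 CPM (-4.69). The nuclear RNA Malat1, made in most cells, was lower in microglia as well, at 425, 344 and 441 CPM and 184, 99.4 and 166 CPM (-1.43).

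Among piRNA entries that reached 20 CPM, the widest differences called were in sequences that other small RNAs also hold. Of the 167 tested, 142 had a sequence in the table, and 61 of these lay whole within an annotated short noncoding RNA and took 48.2% of the piRNA counts. Of the 18 called (10.8% of the 167), 8 were among these 61. Over all entries tested, log2 differences ran from -3.90 to 3.08. The 2 widest differences in each direction among entries that reached 20 CPM all belonged to them, and their sequences are shown because each occurs in a named gene.
piR-67265: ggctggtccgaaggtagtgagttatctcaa
piR-68767: agctggtgttgtgaatcaggccgtt
piR-11876: caccaagatgagtggtgcaaatctgatc
piR-67196: gtaggtgaacctgcggaaggatcatta
piR-67265 is found in Rny1 and stood at 2260, 3455 and 2127 CPM in astrocytes and 167, 187 and 172 CPM in microglia (-3.90 ± 0.24, adjusted p = 1.32e-06), beside -3.25 for the gene. piR-68767 is found in the hairpin Mir138-1 (-3.18, and -3.38 for the gene) and piR-11876 in Snord17 (2.35, and 2.95 for the gene in the summed table). piR-67196 is found in Rn18s-rs5 and rose from 165, 248 and 154 CPM to 980, 745 and 955 CPM (2.24), while the gene itself was not called at 0.80.

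Many longer transcripts also hold a small RNA gene in an exon, and since strand was not used in counting either, their counts cannot be told apart from those of a small RNA at the same place. Of the longer Ensembl transcripts tested, 504 hold such a gene and 3740 do not, and the 504 took 73.4% to 76.5% of the counts of these transcripts. Of the 504, 22.0% were called, against 27.1% of the others. For antisense transcripts the shares were 55.8% and 18.1%, and for long intergenic noncoding RNAs 37.7% and 12.3%. The order was the other way for retained introns (6.62% and 22.6%), protein-coding transcripts (16.7% and 33.2%) and processed transcripts (15.8% and 22.5%). Isoforms of a gene, such as those of the antisense Rian, were counted separately in these shares. Some of the wide differences in these classes belonged to transcripts at miRNA loci. C130071C03Rik-201, which holds Mir9-2, had a log2 difference of -5.49, and the antisense F630028O10Rik-202 at the Mir223 locus one of 6.21. Gm28119-201, which holds Mir125b-1, was at 1271, 1695 and 1519 CPM in astrocytes and 475, 619 and 524 CPM in microglia (-1.47), close to the -1.44 of miR-125b-5p. Rpl10-209, a retained intron with Snora70, rose from 356, 335 and 346 CPM to 1357, 1579 and 1280 CPM (2.02). The protein-coding Kctd12-202, which holds Mir5130, was higher in microglia (5.66). Among transcripts without such a gene, Gpr37l1-201, a receptor of astrocytes, had 262 counts in astrocytes and 3 in microglia (95% exact interval of the ratio 28.2 to 407).

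The same fractions of KIN mice, from other animals and other libraries, allowed the differences to be read again. Of 4570 features tested between KIN microglia and KIN astrocytes, 1611 were called (35.3%). Of the 2016 features called in WT mice, 1516 were tested in KIN mice, 1486 had the same direction, 1176 were called in that direction and 1 was called in the other. For the 242 called miRNAs, 236 were tested, 228 had the same direction and 200 were called. The 16 miRNAs with the widest differences were all called in the same direction, with log2 differences of 9.08 for miR-146a-5p and 7.27 for miR-142a-3p. The 22 mitochondrial tRNAs all had the same direction and 18 were called. Myeloid miRNAs were called higher in 7 of 8, neural miRNAs lower in 13 of 13 and Dlk1-Dio3 miRNAs lower in 25 of 25 tested. The polymerase III RNAs repeated less well, with Rn7sk at -0.07, Rn7s1 at 0.24 and Rmrp at 0.05 in KIN mice, and Rps3-204, a retained intron with Snord15b, at 0.35 against 1.43 in WT mice. A direct test of whether the difference between fractions depended on genotype called 22 of 7053 features (0.312%).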

How the data were processed

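Small RNA was sequenced by the authors with a kit that ligates adapters carrying molecular identifiers. Per the submitters' processing notes, tools included cutadapt 4.6, FastQC 0.11.9, MultiQC 1.23, Bowtie2 2.4.4, HTSeq 2.0.2 and DESeq2 on the build mm39. The counts as deposited are whole numbers of reads, not normalized, placed in rounds (mature miRNAs, tRNA genes, piRNAs, Ensembl transcripts) and counted without strand, so reads of near-identical copies, hosts and antisense partners cannot be separated. Not used were 36 further columns of per-library values, 18 pooled columns and 15 columns of the authors' comparisons (fold changes and p-values of KIN against WT).

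Groups came from the sample titles. Members and lists were chosen with earlier results of these data known. The main test was quasi-likelihood in edgeR 4.0.16, run in R 4.3.3 with limma 3.58.1, with fraction as the only term, TMM factors on library totals, Benjamini-Hochberg over all tested features. The common biological coefficient of variation was 30.5%. Levels are CPM on the same scale, intervals cover counting error only. Classes were compared by an exact permutation test (Python 3.11.15, scipy 1.17.1). Genes are from GENCODE vM39, matched by 145452 of 146263 Ensembl features. Seeds used the table's sequences, of which 352 of the 418 tested were also in RefSeq. The fits were tested on simulated data. Beyond lists, named features were called, did not overlap, and had the largest differences: 8 mature miRNAs per direction at 100 CPM, and 2 per direction at 20 CPM in each other class with at least 20 tested. The seed groups, piRNAs, isodecoders, hosts and most abundant miRNAs were named after their values were seen. Alternatives were DESeq2 1.42.0, RLE factors, library totals, TMM factors from mature miRNA, no filter, 20 counts in 3 libraries, a replicate block and omitted libraries, and the omission of both libraries numbered 2 was chosen after seeing the data.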

Additional observations from a re-analysis of the deposited data

Results flagged for a closer look

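The difference between microglia and astrocytes was tested for dependence on genotype as an interaction, WT less KIN, by edgeR over 7053 features. A separate fit did the same in the table summed by gene. These named results were past the threshold, the miRNAs and the hairpin in the former fit and the other genes in the latter. They are given as values, and the causes were not tested. miR-92b-3p differed by -3.88 (log2) in WT and -7.61 in KIN mice, an interaction of 3.66. miR-19b-3p differed by 2.86 and 1.15, an interaction of 1.64. The hairpin Mir219b-201 differed by -6.31 and -8.55, an interaction of 2.18. It lies inside Mir219a-2 on the opposite strand, and without strand the counts of these hairpins cannot be told apart. Apoe, summed by gene, was lower in microglia in WT (-1.64) and stood at 0.90 in KIN mice, an interaction of -2.61.

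In the fit of the summed table, Snhg14 differed by -2.14 in WT and -4.71 in KIN mice, an interaction of 2.54. Of the 17 Snord116l genes it hosts, 11 were past the threshold in that fit, all in the same direction as Snhg14. The interactions were 3.26 for Snord116l1, 3.52 for Snord116l2, 3.58 for Snord116l5, 3.55 for Snord116l7, 2.99 for Snord116l8, 2.80 for Snord116l10, 3.18 for Snord116l12, 3.27 for Snord116l13, 3.87 for Snord116l14, 2.85 for Snord116l16 and 4.87 for Snord116l17. In the fit over 7053 features, the Snord116l genes past the threshold were Snord116l2 (3.46) and Snord116l17 (4.79). All the Snord116l copies share reads and count as a single observation.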

How the results depend on the processing

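Of the 311 named or listed values that were called, none changed direction in any alternative. The calls lost were 15 with DESeq2, 5 with RLE factors, 15 with library totals, 21 with TMM factors from mature miRNA, 22 without a filter, 2 of 265 with 20 counts in 3 libraries, and 9 to 42 when a library was left out. That stricter filter tested fewer features and called 959, 974 in the summed table and 81 mature miRNAs higher in astrocytes. The calls with single libraries left out ranged from 1437 to 2134 features, 1544 to 2243 in the summed table, 74 to 122 miRNAs higher in microglia and 107 to 143 higher in astrocytes. Without both libraries numbered 2, the retained intron share differed by 0.776 instead of 1.33 percentage points and the mature miRNA share by 0.0127 instead of -1.06. The hairpin share differed by 0.185 points, and by -0.0951 to 0.522 with a library left out. The causes were not tested. With a replicate block 2289 features and 2581 summed entries were called, and among the named values it removed the call of tRNA-Leu-AAG-3 only. Same-numbered libraries of the fractions correlated at 0.316, 0.360 and 0.0430 in their deviations, and differently numbered ones at -0.372 to 0.192. Per the study's methods, each brain gave all its fractions in sequence. The labels do not say that a number marks the same brain, so the main test did not pair the libraries. Depth limits the fragments of long transcripts, whose markers were low in CPM.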
